A study of Mus musculus with 15 samples.

Results

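Chemokines are small secreted proteins that direct the movement of leukocytes, and chemokine receptors are the G protein-coupled receptors on the cells that follow them. In the thymus, receptors of this family place developing T cells: Cxcr4 binds Cxcl12 and is used by early thymocytes, Ccr9 binds Ccl25 made by thymic epithelium, and Ccr7 binds Ccl19 and Ccl21 and draws positively selected cells into the medulla. Described here are the mouse protein-coding genes whose symbol is Ccl, Cxcl, Ccr or Cxcr followed by a digit. There were 53 of them among 22254 protein-coding genes on chromosomes 1 to 19 and X. Of these, 18 were receptors (Ccr, Cxcr) and 35 were ligands (Ccl, Cxcl). Ccr9, Ccr7 and Cxcr4, receptors that thymocytes express, were set against the other 50.

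The cells were CD69- CD4+CD8+ double positive thymocytes, immature T cells that have not yet received a selection signal, from wild type C57BL/6 mice. No age is given in the labels. ChIP-seq peak lists were available for 3 targets. CTCF, a DNA-binding protein that halts and holds cohesin, had 1 library, Rad21, a subunit of the cohesin ring, had 2, and H3K27ac, a histone acetylation found at active promoters and enhancers, had 2. Other samples of the series, 8 Hi-C and 2 input, were not analysed here. Every group used here is wild type, so there was no comparison of genotypes or treatments. Whether the replicates of a target are separate animals is not in the labels, and the spread between them may be technical.

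A peak marks where a target was enriched, and not how much RNA a gene makes. The files hold a fold enrichment per peak, which is the authors' value over local background. It is given below for each replicate, replicate 1 first. A shared region is a merged stretch with a peak in both replicates. Its width, and the H3K27ac cover of a window, are those of the merged stretch, which 1 replicate alone may span. Promoter means 2000 bp on either side of any annotated transcription start site (TSS), and window means the gene body with 20 kb added on each side. Depth is unknown, because peak lists carry no read counts. The weakest peaks differed between lists: 32.4% and 38.4% of H3K27ac peaks and 29.1% of CTCF peaks had a q above 0.05, against 0% in both Rad21 lists. In the family's windows, 83.3% and 72.5% of Rad21 peaks and 56.9% and 85.4% of H3K27ac peaks met a peak of the other replicate.

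The labelled cell type was checked on promoters. All 10 marker genes of double positive thymocytes that were found, Rag1, Rag2, Cd4 and Cd8a among them, carried shared H3K27ac. The counts were 0 of 6 myeloid markers, 0 of 4 dendritic cell markers and 1 of 6 thymic epithelial markers (Aire). Markers of fibroblasts and endothelium gave 1 of 6 (Pecam1), and B cell markers gave 2 of 6, Cd79b among them. Marker genes of other cell types, among them cells that make many of the ligands, thus mostly lacked it.

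Most of the family had an unmarked promoter in these thymocytes. No peak of any of the 5 lists lay within 2000 bp of a TSS for 38 of the 53 genes (71.7%), against 44.5% of all genes. Ligands and receptors differed in this count: 30 of 35 ligands (85.7%) and 8 of 18 receptors (44.4%) had no promoter peak. Shared H3K27ac lay at 8 promoters (15.1%), against 41.5% of all genes. They belonged to 5 receptors, Ccr9, Ccr7, Cxcr4, Ccr4 and Cxcr2, and 3 ligands, Ccl25, Ccl4 and Ccl6. Shared Rad21 lay at 10 promoters (18.9%), against 31.5% of all genes and among them those of Ccr9, Ccr7, Cxcr4, Ccr4, Ccr10, Cxcr1, Cxcr6, Ccl1 and Cxcl12. CTCF lay at 8 of the same promoters, all but those of Ccr9 and Cxcr6, against 26.5% of all genes. Taken alone, the H3K27ac replicates marked 10 and 8 promoters of the family (44.7% and 43.0% of all genes) and the Rad21 replicates 10 and 11 (36.3% and 43.6%). The family as a whole was thus below the background in each list. Receptors and ligands differed: shared Rad21 lay at 8 of 18 receptor promoters (44.4%) and 2 of 35 ligand promoters (5.71%), and CTCF at 6 (33.3%) and 2 (5.71%). Without Ccr9, Ccr7 and Cxcr4, the other 15 receptors were near all genes, with shared Rad21 at 33.3% of promoters and CTCF at 26.7%. For shared H3K27ac, receptors (27.8%) and ligands (8.57%) were both below all genes.

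The marks combined in different ways. Shared H3K27ac and shared Rad21 met at 4 promoters, all of receptors: Ccr9, Ccr7, Cxcr4 and Ccr4 (25.3% of all genes had both). Of these, Ccr7, Cxcr4 and Ccr4 also had CTCF, which 15.0% of all genes did. Rad21 with CTCF but without shared H3K27ac was found at 5 promoters, those of Ccr10, Cxcr1, Ccl1 and Cxcl12 among them, or 9.43% of the family against 5.21% of all genes. The promoters of Cxcr2, Ccl25, Ccl4 and Ccl6 had shared H3K27ac without shared Rad21 (16.2% of all genes). Among the 50 genes other than Ccr9, Ccr7 and Cxcr4, shared H3K27ac with shared Rad21 was left at 1 promoter, that of Ccr4. All 3 thymocyte receptors were thus in the small set with both.

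**Figure D1:**
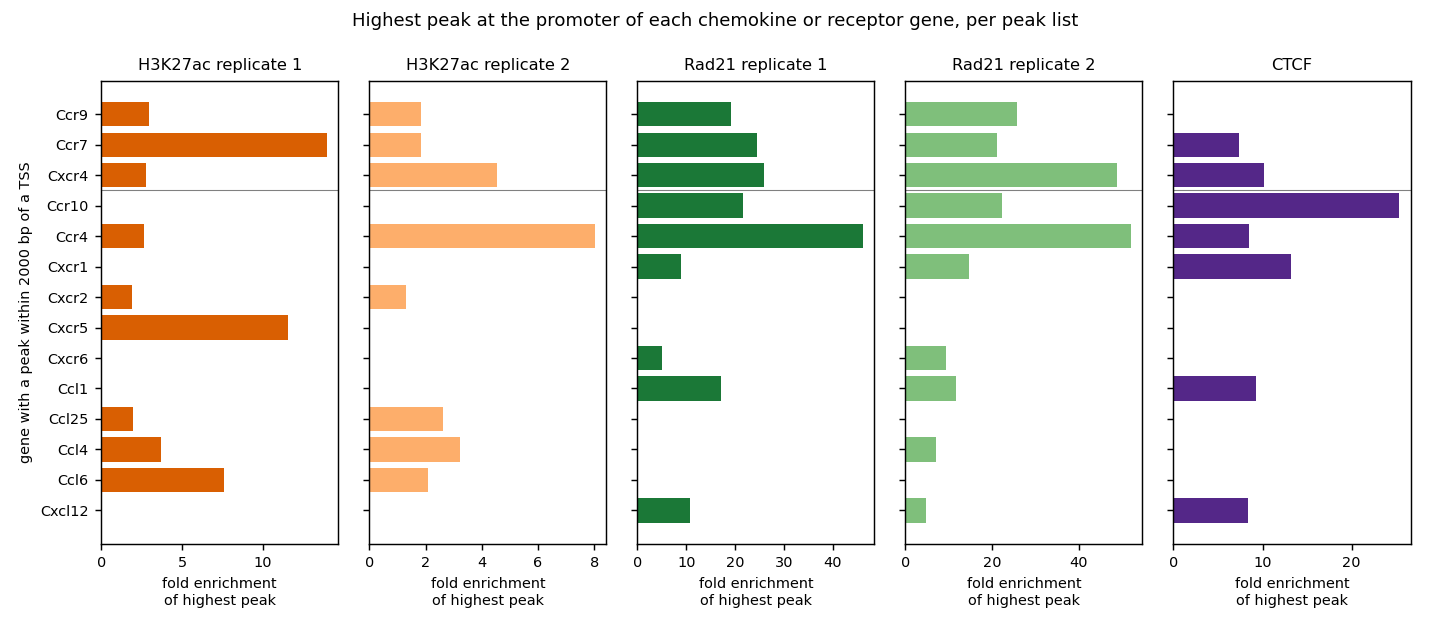
Bars give the fold enrichment (linear horizontal axis, a scale of its own in each panel) of the highest promoter peak of the members named on the left, each with a promoter peak in at least 1 list, 1 panel per list, with Ccr9, Ccr7 and Cxcr4 above the line. Ccr9, Ccr7, Cxcr4 and Ccr4 have bars in both Rad21 and both H3K27ac panels, Ccr9 has no CTCF bar, and Ccr10, Cxcr1, Ccl1 and Cxcl12 have Rad21 and CTCF bars only.

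Within the window, which takes in nearby enhancers but also neighbouring genes, the family was closer to the background for Rad21 and CTCF. For H3K27ac it stayed well below. Shared Rad21 lay in the windows of 31 members (58.5%), against 65.9% of all genes. A Rad21 peak of replicate 1 lay in 31 windows and of replicate 2 in 35 (69.3% and 71.9% of all genes). CTCF lay in those of 36 (67.9%), against 72.0%. Shared H3K27ac lay in the windows of 17 (32.1%), against 57.8%. The family's windows were shorter, with a median of 44.7 kb against 55.5 kb for all genes, and these shares are not corrected for length. Per 100 kb, the family's median was 2.17 against 1.99 for shared Rad21 and 2.36 against 2.26 for CTCF. For shared H3K27ac it was 0 against 1.22. Receptors had Rad21 in 14 of 18 windows (77.8%) and ligands in 17 of 35 (48.6%). H3K27ac alone was less even between replicates: replicate 1 had a peak in the windows of 15 of 18 receptors and replicate 2 in those of 8 (64.1% and 60.6% of all genes), while ligands counted 10 and 12 of 35. The share for receptors therefore rests on which H3K27ac library is read, and requiring both left 7.

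**Figure D2:**
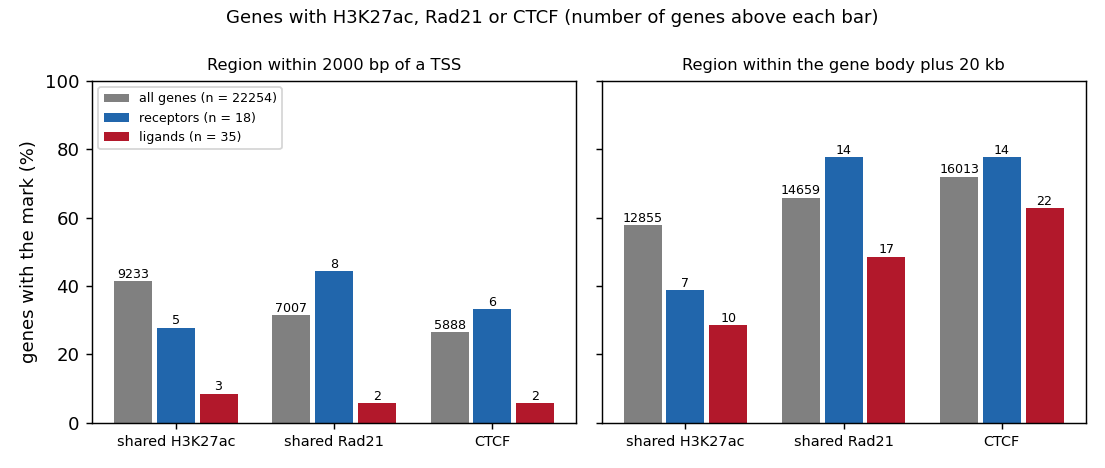
Percent of genes with shared H3K27ac, shared Rad21 or CTCF (vertical axis) at the promoter and within the gene body plus 20 kb, for receptors, ligands and all genes, with the number of genes above each bar. Receptors exceed ligands for every mark at the promoter, and both are below all genes for H3K27ac.

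Ccr9 lies on chromosome 9 (123587557 to 123691089, plus strand, build mm9). Most of that span comes from 1 transcript that starts far upstream and runs across Lztfl1, while the other 3 start near 123676329, so the window measured 143.5 kb. The promoter at the main TSS carried Rad21 without CTCF. The 250 bases before that TSS are shown because the Rad21 region begins among them, with an E box, a site for bHLH and zinc finger factors such as those of developing T cells, in capitals (CACCTG, here read as its reverse complement, 85 bases before the TSS).
Ccr9 promoter, chr9:123676079-123676328, plus strand: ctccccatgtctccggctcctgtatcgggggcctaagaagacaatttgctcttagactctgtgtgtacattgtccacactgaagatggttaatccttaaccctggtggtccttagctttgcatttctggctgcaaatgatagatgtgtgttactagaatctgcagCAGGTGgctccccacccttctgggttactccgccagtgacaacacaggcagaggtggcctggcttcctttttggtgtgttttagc

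The Rad21 peak over the Ccr9 TSS (123676080 to 123676707) had folds of 19.1 and 25.7. A second shared region began 1164 bp inside the gene (5.58 and 8.85), and another 1849 bp inside it (9.57 and 19.9). All 3 lay in a stretch of shared H3K27ac of 6314 bp (3910 bp in replicate 2) with folds of 2.94 and 1.83. That acetylation was weak in replicate 2, where its −log10 q was 0.260, against 3.51 in replicate 1. No CTCF peak lay within 2000 bp, and the nearest to the main TSS was 6202 bp away.

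Upstream, 3 more shared Rad21 regions stood 9361, 10014 and 12432 bp before the TSS. The one at 10014 bp was the highest of them, with folds of 17.0 and 25.2, against 5.58 and 11.5 at 9361 bp and 12.1 and 18.7 at 12432 bp. All were free of CTCF and sat in 1 shared H3K27ac region of 10870 bp (2.33 and 2.81). Replicate 1 had a single peak over that whole stretch. Replicate 2 had peaks of 6383 and 1365 bp in it, the latter with a −log10 q of 0.215. The window held 12 shared Rad21 regions in all, a number that 0.912% of all genes reached. Of these, 8 lay in H3K27ac without CTCF, which 0.463% of all genes reached. That count includes 2 regions at the promoter of Lztfl1, a gene of ciliary transport that the long transcript crosses. H3K27ac covered 13.6% of the window, which 7.19% of all genes reached. The counts of regions come from a window of 143.5 kb, longer than the median of 55.5 kb over all genes. Per 100 kb, Ccr9 had 8.36 shared Rad21 regions, against 13.8 at Ccr7 and 11.3 at Cxcr4. With the first listed transcript of Ccr9, the window held 8 shared Rad21 regions.

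The other 4 regions overlapped CTCF and stood outside the acetylated stretches. They lay in introns of Slc6a20a, an amino acid transporter (Rad21 10.1 and 28.1, CTCF 5.26), of Lztfl1 (41.2 and 38.0, CTCF 7.73), of Ccr9 itself (18.6 and 20.7, CTCF 4.09) and of Fyco1, a gene of vesicle transport (63.1 and 35.8, CTCF 11.6). The Fyco1 site is also in the window of Cxcr6. Each of the 4 CTCF peaks held a match to the CTCF core consensus. The 29 bases around each match are shown on the strand of the match, with the 13-base core in capitals, because that strand gives the side on which CTCF stops cohesin.
Ccr9, Slc6a20a intron, chr9:123574961-123574989, plus strand: aggcaagcACGGCAGGGGGCGatagtgag
Ccr9, Lztfl1 intron, chr9:123622408-123622436, plus strand: taacatgaCCAACAGGTGGAGtccttaac
Ccr9, own intron, chr9:123682612-123682640, minus strand: agaaaaggCCAGGAGAGGGCAtcagatcc
Ccr9, Fyco1 intron, chr9:123705478-123705506, minus strand: cgcagtgaACACAAGGGGGCAtagaaagc

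The matches upstream of the main Ccr9 TSS were both on the plus strand and those downstream both on the minus strand, so the motifs on either side faced the gene. A match allowed at most 2 mismatches within 50 bp of a CTCF summit and is a description of letters. Of all CTCF peaks, 72.4% had one, and of the 71 in the family's windows, 59 did (83.1%).

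Ccr7 lies on chromosome 11 (99005510 to 99016391, minus strand), with 1 TSS and a window of 50.9 kb. Its promoter had peaks in all 5 lists. The 250 bases before the TSS are shown because Rad21, CTCF and H3K27ac touch them, H3K27ac in replicate 1 alone. A RUNX motif (TGTGGT, 104 bases before the TSS) is in capitals.
Ccr7 promoter, chr11:99016392-99016641, minus strand: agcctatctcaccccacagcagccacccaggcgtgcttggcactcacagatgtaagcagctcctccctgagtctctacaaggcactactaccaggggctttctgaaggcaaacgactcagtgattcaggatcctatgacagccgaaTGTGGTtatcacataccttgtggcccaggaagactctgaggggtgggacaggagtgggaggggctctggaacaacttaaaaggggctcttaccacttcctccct

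Rad21 at the Ccr7 TSS had folds of 24.6 and 21.1, and a CTCF peak of fold 7.31 lay 93 bp upstream. H3K27ac there differed between replicates, with a fold of 13.9 (−log10 q 44.8) in the first and of 1.82 (−log10 q 0.235) in the second. A higher Rad21 peak lay in an intron, 4767 bp inside the gene, with folds of 62.7 and 37.2 on a CTCF peak of fold 13.6. Both Rad21 libraries thus placed a strong peak at the start of Ccr7 and another within it.

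The window of Ccr7 held 7 shared Rad21 regions, which 5.32% of all genes reached, and 3 were free of CTCF and in H3K27ac (5.83% of all genes). Those 3 lay 6821 bp inside the gene (7.25 and 11.7), 18211 bp on the 3′ side of the TSS (8.06 and 12.7) and 15702 bp upstream (3.26 and 18.1). CTCF-bound regions lay 30814 bp on the 3′ side (20.1 and 43.9) and 17023 bp upstream (6.14 and 6.44). Acetylation was spread widely around this gene: 6 shared H3K27ac regions covered 17.6 kb, or 34.6% of the window, a share that 0.732% of all genes reached. The widest, of 9965 bp, was upstream of the gene and had folds of 5.61 and 1.79.

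Core matches were found at 3 of the 4 CTCF peaks of Ccr7, and not at the one beside the TSS. They are shown in the same way because their strands differ from those at Ccr9.
Ccr7, 3′ side, chr11:98985430-98985458, minus strand: acaactgcCCACAAGGGGGCAtccaaaca
Ccr7, own intron, chr11:99011410-99011438, minus strand: cctagtctCCAGCAGGTGGTGctatggcc
Ccr7, upstream, chr11:99033517-99033545, plus strand: gcaacaggCCAGAAGAGGGCAtcagatcc
Here the matches at both ends of the window faced away from the gene. The upstream one belonged to a weak CTCF peak, with a fold of 3.41 and a −log10 q of 0.479.

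Cxcr4 lies on chromosome 1 (130484776 to 130488870, minus strand) and has a window of 44.1 kb. The 250 bases before its TSS are shown because the strongest cohesin signal of the gene lies over and before them, with a pair of overlapping TATAAA matches, 1 on each strand, in capitals (38 and 36 bases before the TSS).
Cxcr4 promoter, chr1:130488871-130489120, minus strand: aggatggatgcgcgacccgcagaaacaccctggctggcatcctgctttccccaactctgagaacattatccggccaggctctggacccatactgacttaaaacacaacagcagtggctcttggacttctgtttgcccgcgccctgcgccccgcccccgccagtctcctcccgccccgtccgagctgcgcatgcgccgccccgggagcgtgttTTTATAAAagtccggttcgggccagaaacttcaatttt
Cxcr4, CTCF site upstream, chr1:130489207-130489235, plus strand: ctgcctaaCCAGTAGGCGGCAatgttgga

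Rad21 at the Cxcr4 promoter had folds of 25.9 and 49.0 in a merged region of 2850 bp, longer than the other promoter regions of the family. In replicate 1 it was made of 4 peaks and in replicate 2 of 1 peak of 2501 bp. A CTCF peak of fold 10.2, the single one in the window, lay 214 bp upstream of the TSS. A merged H3K27ac region of 6813 bp spanned the gene, with highest folds of 2.76 (−log10 q 2.95) and 4.53 (−log10 q 5.74). Replicate 1 had a single peak over that whole stretch. Replicate 2 had separate peaks of 508, 642 and 2969 bp, the last over the TSS. The first 2 of these had −log10 q of 0.332 and 0.335. Cxcr4 was the 1 gene of these 3 whose promoter acetylation had a q under 0.05 in both replicates.

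The window of Cxcr4 held 5 shared Rad21 regions, which 12.9% of all genes reached. Beside the promoter, a region 1941 bp inside the gene (5.58 and 5.85) was in the same acetylated stretch. A second stretch of H3K27ac, of 4149 bp (1.96 and 6.05), began 9820 bp upstream and held regions at 10426 bp (5.36 and 4.30) and 10826 bp (3.09 and 7.16). The last region, 19480 bp upstream (6.33 and 5.27), had neither CTCF nor H3K27ac. H3K27ac covered 24.9% of the window, which 2.10% of all genes reached. At Cxcr4, every shared Rad21 region away from the promoter thus lay off CTCF.

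**Figure D3:**
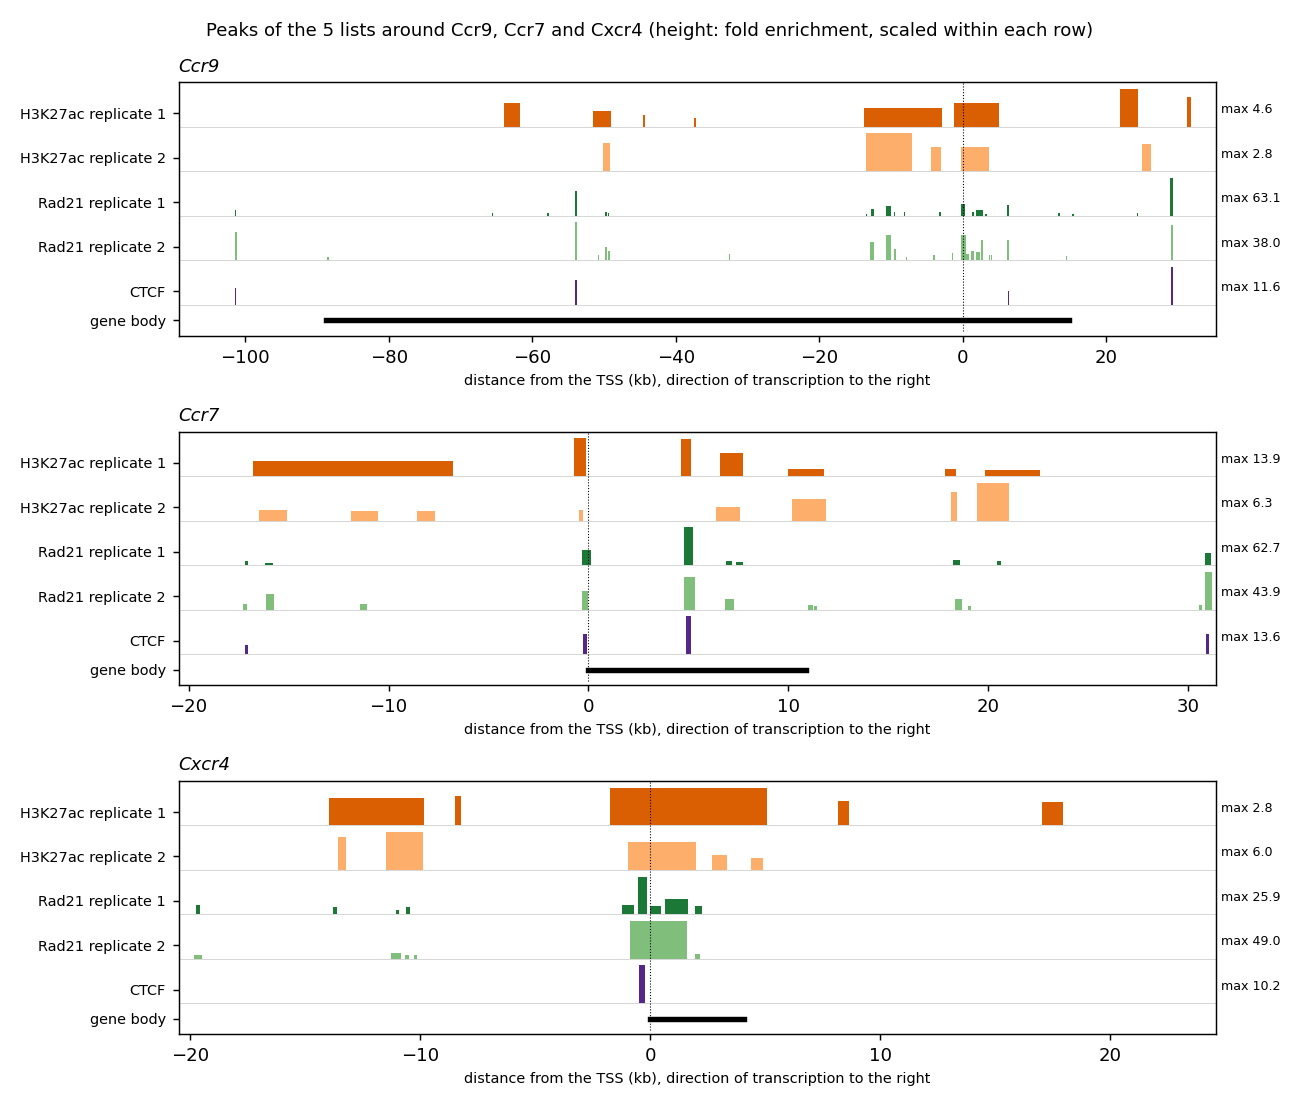
Peaks of each of the 5 lists around Ccr9, Ccr7 and Cxcr4 by distance from the TSS in kb (the main TSS for Ccr9), with transcription to the right and the gene body as a black bar. Bar height is the fold enrichment scaled to the highest peak of the row, whose value stands at the right, and the CTCF row of Cxcr4 shows a single peak while that of Ccr9 shows 4.

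Set against the median of the rest of the family, the windows of Ccr9, Ccr7 and Cxcr4 were dense in cohesin. The median was 11.3 shared Rad21 regions per 100 kb for the 3 genes and 1.99 for all genes. It was 2.12 for the other 50 and 4.42 for the other 15 receptors. By gene, Ccr7 had 13.8, Cxcr4 11.3 and Ccr9 8.36. Among the other 50, Cxcr5 had 12.8, and Cxcl17, Ccr10 and Ccr8 had 7.57, 7.07 and 7.01. High density was thus not particular to the 3 genes. The class of region differed too. Of 24 shared Rad21 regions in the windows of the 3 genes, 9 overlapped CTCF (37.5%) and 14 lay in H3K27ac without CTCF (58.3%). Of 49 in the windows of the rest, 40 overlapped CTCF (81.6%) and 6 lay in H3K27ac without CTCF (12.2%). Of those 6, 3 were in the window of Cxcr5. Over the whole genome 65.9% of shared Rad21 regions overlapped CTCF and 24.6% lay in shared H3K27ac without CTCF (36.9% overlapped H3K27ac with or without CTCF). 1 region, in Fyco1, is counted on both sides. These are counts over single genes with no test between the sets, and the 3 genes were chosen as ones that thymocytes express.

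Rad21 peaks off CTCF were lower than those on it in every set. In the windows of the 3 genes, the median fold was 24.6 and 35.8 with CTCF and 6.22 and 11.7 without. In the windows of the rest it was 14.2 and 16.0 with CTCF and 5.54 and 6.69 without, and over all shared regions it was 12.8 and 15.0 with and 6.07 and 7.35 without. A CTCF-free Rad21 region overlapping H3K27ac was found in the windows of 7 members, against 27.1% of all genes. The members beyond the 3 were Cxcr5, Ccr4, Ccl1 and Ccl3. At Ccr4 the overlap was at the edge alone. Its Rad21 region ended at 114405885 and H3K27ac began at 114405882, or at 114405928 in replicate 2. Asking for 50% overlap left 24 of the family's 72 Rad21 regions in H3K27ac, against 28.

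**Figure D4:**
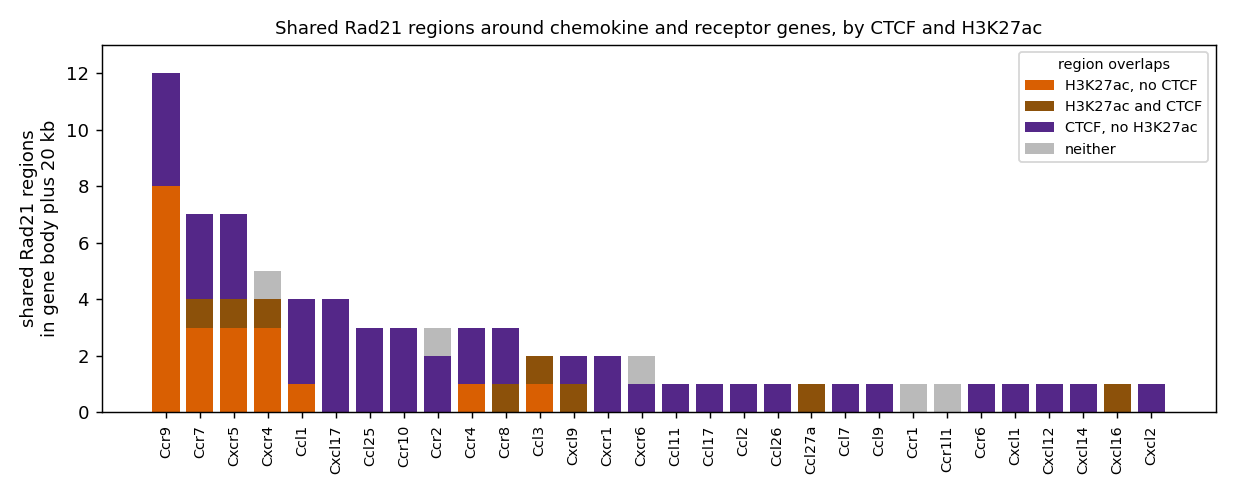
Number of shared Rad21 regions (vertical axis) in the gene body plus 20 kb, split by overlap with CTCF and shared H3K27ac, for the members named on the horizontal axis, each with at least 1 such region. Ccr9 has 12 regions, 8 of them in H3K27ac without CTCF, while the 4 regions of Cxcl17 all overlap CTCF.

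Ccr4, a receptor for Ccl17 and Ccl22 that thymocytes raise during selection, was the single member besides Ccr7 and Cxcr4 with all 3 marks at the promoter. Its Rad21 peak at the TSS had folds of 7.74 and 18.8 and no CTCF. A higher one 1658 bp upstream had folds of 46.2 and 52.1 on a CTCF peak of fold 8.48, and another, 3687 bp upstream, had 14.5 and 15.6 on CTCF of fold 7.23. Promoter H3K27ac was narrow, 400 bp, with folds of 2.62 (−log10 q 2.54) and 8.03 (−log10 q 12.8). Acetylation covered 0.865% of its window, so the wide stretches around Ccr9, Ccr7 and Cxcr4 had no counterpart there. The upstream CTCF sites are shown because the pair, close together, lay on opposite strands.
Ccr4, nearer site, chr9:114407521-114407549, minus strand: gtcctggtACACCAGGGGGCGctacagct
Ccr4, farther site, chr9:114409446-114409474, plus strand: tataacggCCAGCAGATGGCAgcgttttc

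Cxcr5, the receptor for Cxcl13 that guides B cells and follicular helper T cells, had as many shared Rad21 regions as Ccr7, 7, and 3 of them lay in H3K27ac without CTCF. Its shared H3K27ac covered 18.6% of the window, which 4.08% of all genes reached. The promoter itself had H3K27ac in replicate 1 with a fold of 11.5 and no peak in replicate 2, and no Rad21 or CTCF. In shared regions the replicates were unlike as well, with folds of 11.1 and 1.72 at 5992 bp upstream and of 9.08 and 1.86 at 11402 bp upstream. Of the Rad21 regions, 4 were on CTCF and lay toward or in the neighbour Bcl9l, the highest with folds of 41.9 and 57.8. Of the B cell markers, Cd79b had promoter H3K27ac of 2.51 and 2.28, and there was none at Cd79a, Ms4a1, Pax5 or Ebf1; their part in the values at Cxcr5 was not tested.

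Among other receptors, cohesin and CTCF appeared with little acetylation. Ccr10, a skin homing receptor, had Rad21 of 21.5 and 22.2 on CTCF of 25.3 in its coding exon, 1328 bp inside the gene, and of 15.6 and 14.6 on CTCF of 11.3 at 1496 bp upstream. Cxcr1, a receptor for neutrophil-attracting chemokines, had Rad21 of 8.93 and 14.6 on CTCF of 13.2 at 1435 bp upstream. Neither had shared H3K27ac in its window. The CTCF sites of Ccr10 are shown because they flank its TSS within 2000 bp and lay on opposite strands.
Ccr10, coding exon, chr11:101035290-101035318, minus strand: gcttctggCCGCCAGGGGGCCagagcggc
Ccr10, upstream, chr11:101038433-101038461, plus strand: tgagtcagCCACAGGGGGGCAgtgaagag
Cxcr6, the receptor for Cxcl16, had a weaker Rad21 region 968 bp upstream (5.02 and 9.41) with neither CTCF nor shared H3K27ac. Cxcr2, next to Cxcr1 and also a neutrophil receptor, had H3K27ac only, with folds of 1.90 and 1.32 and −log10 q of 0.956 and 0.103, the lowest in each replicate among the 8 promoters with shared H3K27ac.

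The 8 receptors Ccr1, Ccr1l1, Ccr2, Ccr3, Ccr6, Ccr8, Cxcr3 and Cxcr7 had no promoter peak in any list. Ccr8, found on regulatory and type 2 helper T cells, had 3 shared Rad21 regions in its window, all on CTCF, and the highest (22.3 and 30.9) was at the promoter of its neighbour Slc25a38. Ccr2, a monocyte receptor, had 3 in its window, 2 of them on CTCF. Cxcr3, which Th1 cells use, and Cxcr7, a decoy receptor for Cxcl12, had no peak of any list in their windows.

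Among ligands, promoter marks were rare. Cxcl12, the ligand of Cxcr4, had Rad21 of 10.8 and 4.81 on CTCF of 8.34 at 1367 bp upstream and no H3K27ac. Ccl25, the ligand of Ccr9, had H3K27ac of 1.95 and 2.63 over a promoter that it shares with Elavl1, an RNA-binding protein gene, so the mark cannot be assigned to either. Its nearest shared Rad21 region (12.8 and 16.4), on CTCF of 9.49, was just outside the promoter at 2408 bp. Ccl19 and Ccl21a, ligands of Ccr7, had no peak in their windows. Among the ligands of these 3 receptors, shared promoter acetylation was thus found at that joint promoter alone.

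Ccl4 and Ccl6 were the ligands with promoter acetylation that no neighbour shares. Ccl4, an inflammatory chemokine made by activated T cells and macrophages, had H3K27ac of 3.70 (−log10 q 7.47) and 3.22 (−log10 q 2.33), and a Rad21 peak of 7.03 in replicate 2 alone. Ccl6, a myeloid chemokine, had H3K27ac of 7.57 (−log10 q 15.8) and 2.09 (−log10 q 1.08) and no Rad21. None of 6 myeloid markers had shared promoter H3K27ac, and Itgam had a replicate 1 peak of 2.23. Over the 8 family promoters with shared H3K27ac, 3 had a q under 0.05 in both replicates: Cxcr4, Ccr4 and Ccl4.

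Ccl1, a ligand of Ccr8, had Rad21 of 17.1 and 11.8 on CTCF of 9.22 near its promoter, beginning 1321 bp inside the gene. Its window of 169.0 kb, widened by 1 long transcript, held 4 shared Rad21 regions, a number that 20.1% of all genes reached. Another, 3444 bp before a TSS, was free of CTCF in H3K27ac of 1.94 and 4.08. Cxcl17, a mucosal chemokine, also had 4, all on CTCF, the highest 11585 bp upstream with folds of 28.4 and 46.0. Ccl3, the neighbour of Ccl4 with like targets, had 2 regions 8812 and 9547 bp on the 3′ side of its TSS, within H3K27ac of 6.04 and 2.84, and 1 of them was on CTCF. Cxcl9, an interferon-induced ligand of Cxcr3, had 2 toward the neighbour Sdad1, both on CTCF. Ccl11 and Ccl2, an eosinophil and a monocyte attractant, had the same single region between them (13.9 and 8.02), and Ccl17 had 1 (7.35 and 24.9), each on CTCF. Of the 17 ligands with shared Rad21 in the window, 15 had every such region on a CTCF peak, with or without H3K27ac. Most of these held a single region, and some neighbours share theirs. The matching share over all genes was not computed, and 65.9% of all shared Rad21 regions overlapped CTCF.

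The other ligands had no promoter peak either: Ccl5, Ccl7, Ccl8, Ccl9, Ccl12, Ccl19, Ccl20, Ccl21a, Ccl21b, Ccl21c, Ccl22, Ccl24, Ccl26, Ccl27a, Ccl27b, Cxcl1, Cxcl2, Cxcl3, Cxcl5, Cxcl10, Cxcl13, Cxcl14, Cxcl15 and Cxcl16. In 11 members, 9 of them ligands, the whole window was free of peaks (19.4% of all genes): Cxcr3, Cxcr7, Ccl5, Ccl8, Ccl12, Ccl19, Ccl21a, Ccl21b, Ccl21c, Ccl22 and Ccl27b. Over 300 bases around their TSS, Ccl21a and Ccl21b were 99.3% identical, as were Ccl27a and Ccl27b. Reads from such copies may not be placed on either, and how the authors treated them is not given in the sources used here, so an empty window at these genes is uncertain.

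Chemokine genes lie in clusters, and 36 of the 53 had another member within 200 kb, in 10 clusters. The receptor cluster on chromosome 9, which begins with Ccr9 and goes on with Cxcr6, Ccr1, Ccr1l1, Ccr3 and Ccr2, held 19 shared Rad21 regions, 6 shared H3K27ac regions and 6 CTCF peaks. The Cxcl cluster on chromosome 5, with Cxcl5, Cxcl3, Cxcl15, Cxcl1 and Cxcl2, spanned 146.6 kb and held 0 shared Rad21 regions, 0 shared H3K27ac regions and 1 CTCF peak. On chromosome 11, the cluster of Ccl2, Ccl7, Ccl11, Ccl12, Ccl8 and Ccl1 held 5 shared Rad21 regions, 1 shared H3K27ac region and 8 CTCF peaks over 270.1 kb. The cluster of Ccl5, Ccl9, Ccl6, Ccl3 and Ccl4 held 3, 3 and 2 over 138.9 kb. The clusters thus ranged from nearly free of peaks to densely bound, and on chromosome 9 most of the Rad21 regions were those listed for Ccr9.

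Near the TSS, the sequences of the family were searched on both strands from 250 bases before to 50 after each TSS. TATAAA was present at 19 of 53 members (35.8%) and 24.4% of all genes, and the NF-kB consensus at 14 (26.4%) and 16.6%. CCGGAA, an ETS motif, was present at 5 (9.43%) and 25.5%. The E boxes CACCTG and CAGCTG were at 14 (26.4%) and 13 (24.5%), against 36.6% and 29.3% of all genes, and TGTGGT was at 19 (35.8%) against 30.0%. Genes with many TSS have more windows, and letters in a window are not binding sites.

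Most of the listed signalling genes that act behind the receptors had marked promoters. Of 29 such genes, 27 had shared promoter H3K27ac, 25 shared Rad21 and 17 CTCF (41.5%, 31.5% and 26.5% of all genes). They include Gnai2, the G protein subunit that chemokine receptors couple to (H3K27ac 8.11 and 2.80, Rad21 9.79 and 12.2), and Dock2, a Rac activator of lymphocyte migration (H3K27ac 2.21 and 2.48, Rad21 8.37 and 10.4). Rgs1, which dampens receptor signalling, was the 1 gene of the list with no promoter peak. Of 10 ligands and receptors named by other symbols, such as Xcl1, Cx3cr1 and Ccrl1, none had shared H3K27ac, shared Rad21 or CTCF at the promoter, and Xcl1 had a Rad21 peak in replicate 2 alone. The receptors and ligands outside the Ccl, Cxcl, Ccr and Cxcr symbols thus looked like the unmarked majority of the family.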

How the data were processed

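ChIP-seq peak lists of CTCF (1 library), Rad21 (2) and H3K27ac (2) were used, and groups and replicates were taken from the labels. Lists are on mm9, per the submitters' processing notes. These notes name CASAVA 1.82 and 1.84, Bowtie2 2.3.2, HiC-Pro 2.7.8, Juicer 0.7.5, Bowtie 1.0.0 and MACS2 2.1.0 without roles, and for the control and threshold of the calls nothing is stated in the labels or headers. Each deposited peak has a fold enrichment, a ratio over local background by the authors' caller. The authors' −log10 p and −log10 q values stand beside it. The deposited narrow lists also give the summit offset in bp. Peaks were called per library, and depth and the precision it gives are unknown.

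On chromosomes 1 to 19 and X, each peak was counted once per position at the highest fold, giving 38700 and 24765 H3K27ac, 38430 and 48462 Rad21 and 35345 CTCF peaks. Merging replicates gave 30959 shared Rad21 and 16230 shared H3K27ac regions, with an overlap of at least 1 bp. The GENCODE vM1 models on NCBIM37, which is mm9 under another name, gave 22350 protein-coding entries, and overlapping entries of 1 symbol were merged into 22254 genes. Sequences were read from NCBIM37. Scripts ran in Python 3.11.15 with matplotlib 3.10.9 and were tested on simulated data.

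No test was made: all libraries are of 1 condition, so counts are set beside those of all genes. Members and lists were chosen with earlier results of these data known. Named are Ccr9, Ccr7 and Cxcr4, every member with a promoter peak, and of the rest the 8 with the most shared Rad21 regions, though some results under this rule are not reported here. Alternatives were promoters of 500 bp, the outermost TSS, 5 or 50 kb added, −log10 q of at least 5, CTCF peaks with q up to 0.05, 50% overlap and each replicate left out. The first listed transcript, and other settings for the median difference between the 3 genes and the rest, were chosen after seeing the data.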

Additional observations from a re-analysis of the deposited data

How the results depend on the processing

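Of 74 alternative values, 50 stayed within 1.5 times of the reported one or within their spread, and 24 moved. Counts cannot change sign, so a reversal was possible only for the median difference between the 3 genes and the rest. That difference moved in each alternative and stayed positive. A −log10 q of at least 5 removed all shared H3K27ac: 0 family promoters, 0 windows and 0 Rad21 regions in H3K27ac were left, against 5.19% of all promoters, while Rad21 stayed at Ccr9, Ccr7 and Cxcr4. Statements on acetylation therefore rest on weak peaks. With promoters of 500 bp, shared Rad21 was left at 5 (Ccr4, Ccr7, Ccr9 and Cxcr4 among them) and CTCF at 3 (Ccr7 and Cxcr4 among them). With 5 kb added, Rad21 lay in 19 windows and CTCF in 20, and of 41 Rad21 regions 26 overlapped CTCF and 17 H3K27ac. With 50 kb added, H3K27ac lay in 28 windows and 83 of 118 Rad21 regions overlapped CTCF.

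The median difference in Rad21 regions per 100 kb between Ccr9, Ccr7 and Cxcr4 and the rest was 9.22, and became 11.6 with first listed transcripts, 14.2 with 5 kb added, 4.97 with 50 kb added and 13.8 to 15.6 with 1 Rad21 replicate left out. Leaving out a replicate gave 8 to 10 H3K27ac and 10 to 11 Rad21 promoters, 20 to 25 H3K27ac and 31 to 35 Rad21 windows, and 48 to 52 Rad21 regions on CTCF and 26 to 42 in H3K27ac. The share on CTCF fell, because the total of Rad21 regions rose. It was 66.7% of 72 as reported, 51.0% of 102 without Rad21 replicate 1 and 53.3% of 90 without replicate 2. In the window of Ccr9 either Rad21 replicate alone gave 21 or 23 regions against 12 shared, in that of Ccr7 9 or 12 against 7, and in that of Cxcr4 6 or 9 against 5. H3K27ac alone gave 5 or 8 at Ccr9 against 3, and 5 in each replicate at Cxcr4 against 2. The cause was not tested. No paired analysis was possible because no groups were compared by a test and each mark is its own group. CTCF has 1 library and no replicate check.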
